A study of Mus musculus with 8 samples.

Results

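The RNA of mouse platelets was examined for 10 genes of fatty acid and sterol synthesis: Scd1, Fasn, Acaca, Acly, Me1, Elovl5, Elovl6, Insig1, Sc5d and Dgat2. They were taken by gene symbol from deposited tables of 55487 genes, and all 10 were found. The 8 libraries came from male mice aged 13 weeks, 4 heterozygous for the DNA methyltransferase gene Dnmt3a (Dnmt3a+/-) and 4 wild-type littermates (WT). Blood was taken by cardiac puncture, platelets were spun out of plasma, and beads against Ter119 and CD45 depleted red cells and leukocytes. The labels name no other allele or treatment for either group and do not describe the kind of Dnmt3a allele. The 10 genes were chosen by their measured levels in these same libraries, with the contrast of the labels and the levels of Alb and Adipoq in view. Differences between the labels among these 10 genes are therefore descriptions, and where counts of calls from fits over all genes are given for them, they support nothing beyond that choice.

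The 10 genes sit at successive points of lipid synthesis. Acly, ATP citrate lyase, makes cytosolic acetyl-CoA, Acaca, acetyl-CoA carboxylase, turns it into malonyl-CoA, and Fasn, fatty acid synthase, joins these units into a saturated fatty acid with NADPH that Me1, malic enzyme, can supply. Elovl6 lengthens saturated and monounsaturated chains, Elovl5 lengthens polyunsaturated chains, Scd1, stearoyl-CoA desaturase, inserts a double bond, and Dgat2 adds the last chain of a triglyceride. Sc5d is a desaturase of late cholesterol synthesis, and Insig1 is an ER protein that holds back the SREBP transcription factors. Liver and fat tissue are the main sites of fatty acid synthesis in the mouse, and many of these genes are known targets of SREBP there. Platelets have no nucleus and carry RNA made in megakaryocytes.

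Total counts ran from 15620972 to 22160394 in the Dnmt3a+/- libraries and from 15185218 to 17398666 in the WT libraries. Dnmt3a had 9.94, 11.5, 24.2 and 19.5 CPM (counts scaled to 1000000 per library with TMM factors) in Dnmt3a+/- replicates 1 to 4, against 21.1, 22.04, 19.7 and 18.2 CPM in WT replicates 1 to 4. The libraries labelled Dnmt3a+/- replicates 3 and 4 were thus not below the WT range, and every difference below is between labels. Of 13 platelet markers all were tested, and they took 4.78% to 5.53% of counts in Dnmt3a+/- libraries and 4.46% to 5.43% in WT libraries. WT replicate 1 stood apart in red cell markers (9 of 10 found, 7 tested, median log2 fold change -2.12), which took 2.03% of its counts, against 0.317% to 0.486% in Dnmt3a+/- libraries and 0.203% to 0.311% in the other WT libraries.

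Only Scd1, Elovl6 and Acly of the 10 genes were above the count filter in all 8 libraries (0.613 CPM, the level of 10 counts in the median library). The other 7 genes reached it in all 4 WT libraries but in 0 (Sc5d), 1 (Dgat2), 2 (Fasn, Acaca, Me1, Insig1) or 3 (Elovl5) of the Dnmt3a+/- libraries. The filter asked for 4 libraries at that level, whatever the label. All 7 therefore needed WT libraries to enter the fit, Sc5d through these alone, and a difference was built into that choice. On the length-corrected scale the median over 8 libraries was 8.32 TPM for Scd1, 6.89 for Elovl6 and 5.94 for Acly, followed by Me1 at 0.79, Sc5d at 0.68, Fasn at 0.595, Insig1 at 0.46, Dgat2 at 0.425, Elovl5 at 0.39 and Acaca at 0.32 TPM. Neighbours in this order overlapped in their ranges over libraries, except that the lowest Acly value (4.64 TPM) lay above the highest Me1 value (3.29 TPM). The order differed by label. Among the 7 lower genes Me1 had the highest mean in Dnmt3a+/- libraries (0.585 ± 0.449 TPM; SD, n = 4 each label), where Sc5d, Fasn, Elovl5, Acaca, Dgat2 and Insig1 followed between 0.363 and 0.245 TPM. In WT libraries Fasn had the highest mean of the 7 (2.21 ± 1.95 TPM), followed by Sc5d (1.98 ± 0.99), Me1 (1.97 ± 1.38), Elovl5 (1.51 ± 0.89), Acaca (1.05 ± 1.14), Dgat2 (0.975 ± 0.464) and Insig1 (0.79 ± 0.32 TPM). Within each label the means of neighbours among the 7 differed by less than the larger of their SDs. In Dnmt3a+/- libraries Elovl6 was at 6.31 to 8.60 TPM, Acly at 4.88 to 6.12 and Scd1 at 1.45 to 6.20, and in WT libraries Scd1 was at 10.4 to 18.1, Acly at 4.64 to 10.5 and Elovl6 at 5.67 to 6.94. Scd1, Acly and Elovl6 together made up 83.6% to 90.1% of the summed TPM of the 10 genes in Dnmt3a+/- libraries and 66.3% to 78.0% in WT libraries.

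**Figure D1:**
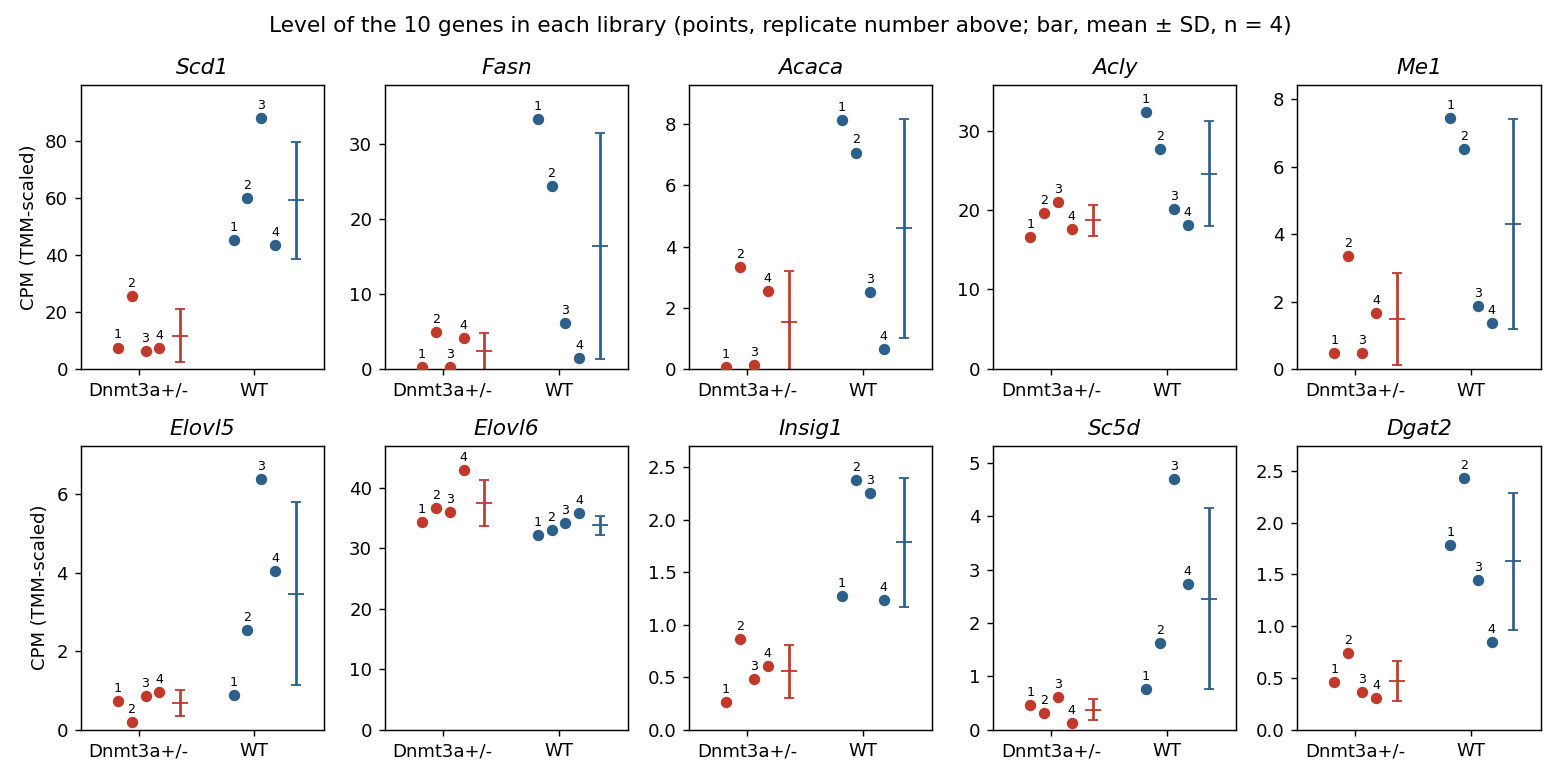
Level of each of the 10 genes in CPM (vertical axis, counts per 1000000 after TMM scaling) in the 4 Dnmt3a+/- libraries (red) and the 4 WT libraries (blue), numbered by replicate, with mean ± SD beside them (bars cut off at 0). Scd1, Insig1, Sc5d and Dgat2 do not overlap between labels, Elovl6 lies between 32.1 and 42.9 CPM throughout, and Fasn spans 0.198 to 33.4 CPM.

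Among the genes of desaturation and elongation, Scd1 and Elovl6 had similar medians but unlike profiles. Scd1 (ENSMUSG00000037071; chromosome 19, 44394455 to 44407879, minus strand, GRCm38) had 7.51, 25.7, 6.12 and 7.37 CPM in Dnmt3a+/- replicates 1 to 4, against 45.1, 60.1, 88.0 and 43.4 CPM in WT replicates 1 to 4. Every WT library was above every Dnmt3a+/- library, and Dnmt3a+/- replicate 2 was the closest to the WT range. The log2 fold change was -2.35 (SE 0.44), and -3.09 (SE 0.27) without Dnmt3a+/- replicate 2. Elovl6 (chromosome 3, 129532355 to 129638495, plus strand) had 34.2, 36.7, 35.97 and 42.9 CPM in the Dnmt3a+/- libraries, against 32.1, 33.0, 34.2 and 35.8 CPM in the WT libraries. The groups overlapped, with a log2 fold change of 0.15 (SE 0.11), and its SD of 0.127 over the 8 libraries on the log2 scale was the smallest of the 10. Elovl5 (chromosome 9, 77917364 to 77984519, plus strand) was scarce, with 0.724, 0.185, 0.848 and 0.953 CPM in the Dnmt3a+/- libraries, against 0.890, 2.54, 6.39 and 4.04 CPM in the WT libraries. WT replicate 1 lay inside the Dnmt3a+/- range for Elovl5, while WT replicates 2 to 4 lay above it (log2 fold change -2.31, SE 0.57). Scd1 has near copies beside it in the genome, and of these Scd3 had 0 counts in all 8 libraries (up to 3 expected counts per library are compatible with 0), Scd4 had 0 or 1, and Scd2 had 4 to 27 in Dnmt3a+/- libraries and 9 to 43 in WT libraries.

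The enzymes that build the chain followed another order of libraries. Fasn (ENSMUSG00000025153; chromosome 11, 120805846 to 120824547, minus strand) had 0.198, 4.88, 0.242 and 4.07 CPM in Dnmt3a+/- replicates 1 to 4, from 3, 79, 4 and 94 counts, against 33.4, 24.4, 6.14 and 1.497 CPM in WT replicates 1 to 4, from 525, 452, 98 and 23 counts. WT replicates 1 and 2 were the highest and Dnmt3a+/- replicates 1 and 3 the lowest, while WT replicate 4 lay below Dnmt3a+/- replicates 2 and 4. The log2 fold change of Fasn was -2.77 with an SE of 0.98, the widest among the 10. Acaca (chromosome 11, 84129672 to 84401651, plus strand) had 0.0658, 3.34, 0.121 and 2.56 CPM in the Dnmt3a+/- libraries, against 8.14, 7.08, 2.51 and 0.651 CPM in the WT libraries. Me1 (chromosome 9, 86581371 to 86695953, minus strand) had 0.461, 3.34, 0.484 and 1.65 CPM in the Dnmt3a+/- libraries, against 7.44, 6.54, 1.88 and 1.37 CPM in the WT libraries. In both genes, as in Fasn, WT replicates 1 and 2 led, Dnmt3a+/- replicates 1 and 3 were lowest, and the groups overlapped. On the TPM scale Acaca had 0.27 in WT replicate 3 and 0.28 in WT replicate 4, so its order of libraries depends on the scale. Log2 fold changes were -1.56 (SE 0.89) for Acaca and -1.53 (SE 0.67) for Me1. Without Dnmt3a+/- replicate 2 they were -2.22 (SE 1.03) for Acaca, -2.26 (SE 0.70) for Me1 and -3.35 (SE 1.16) for Fasn, and without WT replicate 1 that of Fasn was -2.15 (SE 0.92). Acly (chromosome 11, 100476353 to 100528000, minus strand) had 16.6, 19.6, 21.0 and 17.6 CPM in the Dnmt3a+/- libraries, against 32.3, 27.7, 20.2 and 18.2 CPM in the WT libraries. WT replicates 1 and 2 were again the highest, but the other 6 libraries lay together (log2 fold change -0.39, SE 0.18).

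Sc5d, Insig1 and Dgat2 were low genes whose groups did not overlap. Sc5d (chromosome 9, 42251595 to 42264256, minus strand) had 0.461, 0.309, 0.606 and 0.130 CPM in the Dnmt3a+/- libraries, from 7, 5, 10 and 3 counts, against 0.763, 1.62, 4.70 and 2.73 CPM in the WT libraries, from 12, 30, 75 and 42 counts. WT replicates 3 and 4 were the highest, and WT replicate 1 lay just above the Dnmt3a+/- libraries (log2 fold change -2.73, SE 0.59). Insig1 (chromosome 5, 28071363 to 28078662, plus strand) had 0.263, 0.866, 0.484 and 0.607 CPM in the Dnmt3a+/- libraries, against 1.27, 2.38, 2.26 and 1.24 CPM in the WT libraries (log2 fold change -1.67, SE 0.39). Dgat2 (chromosome 7, 99153658 to 99182719, minus strand) had 0.461, 0.742, 0.363 and 0.303 CPM in the Dnmt3a+/- libraries, against 1.78, 2.43, 1.44 and 0.846 CPM in the WT libraries (log2 fold change -1.81, SE 0.41). WT replicate 2 was the highest library for both Insig1 and Dgat2.

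Promoter windows are shown for Sc5d and Elovl5, both highest in WT replicates 3 and 4, and for Fasn, highest in WT replicates 1 and 2. Of the 10 genes 8 had a RefSeq window, from 250 bases before to 50 after the annotated start. These 8 genes had 9 windows in all, with a further window for Me1. The searched letters, on both strands, were CACGTG (an E-box, read alike on both strands), CCAAT (the CCAAT box, ATTGG on the other strand) and TCACNCCAC (a sterol regulatory element). Sequences are 5′ to 3′ on the strand of the gene, in GRCm38.p6, with matches in capitals; the Sc5d window is chr9:42264251-42264550 (minus strand), the Elovl5 window chr9:77917115-77917414 (plus strand) and the Fasn window chr11:120824498-120824797 (minus strand).
Sc5d: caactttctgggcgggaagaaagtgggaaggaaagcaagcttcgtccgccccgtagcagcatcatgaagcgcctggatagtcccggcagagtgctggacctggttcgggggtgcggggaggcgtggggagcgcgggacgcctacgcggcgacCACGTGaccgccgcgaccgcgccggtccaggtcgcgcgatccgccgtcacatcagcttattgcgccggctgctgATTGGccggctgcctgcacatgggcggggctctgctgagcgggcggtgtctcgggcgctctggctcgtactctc
Elovl5: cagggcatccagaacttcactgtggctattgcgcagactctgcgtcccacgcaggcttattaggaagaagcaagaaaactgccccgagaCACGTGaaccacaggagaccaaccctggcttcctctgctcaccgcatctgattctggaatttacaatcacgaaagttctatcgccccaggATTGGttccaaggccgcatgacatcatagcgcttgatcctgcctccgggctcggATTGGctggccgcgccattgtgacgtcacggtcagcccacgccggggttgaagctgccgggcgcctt
Fasn: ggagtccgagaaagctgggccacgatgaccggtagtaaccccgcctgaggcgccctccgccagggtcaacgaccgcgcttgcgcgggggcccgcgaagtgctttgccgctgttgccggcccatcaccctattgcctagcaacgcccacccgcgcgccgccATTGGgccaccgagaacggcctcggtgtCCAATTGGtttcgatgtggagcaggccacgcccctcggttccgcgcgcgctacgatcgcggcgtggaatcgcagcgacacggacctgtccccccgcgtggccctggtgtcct
The E-box stood at -98 from the start in Sc5d, -161 in Elovl5 and -101 in Insig1, and in 3 of the 8 genes in all, while 7.15% of all 32851 windows held it. The CCAAT box was found in 6 of the 8 genes, or 6 of their 9 windows, and in 37.4% of all windows. Fasn held it at -90, -62 and -59, the last pair overlapping by a few bases. Me1 held it in the window at chr9:86687228-86687527 and not in that at chr9:86695865-86696164. Acly held it after the start, at 38. The sterol regulatory element was in 0 of the 8 and in 1.24% of all windows, which says only that these letters are not in these windows. These matches are a description of letters and not of bound sites.

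In all, 9 of the 10 genes had negative log2 fold changes (median -1.74), beside 51.0% of the 7362 tested genes (median -0.0050). The groups did not overlap for 4 of the 10, all lower in Dnmt3a+/- libraries, where 1.17% of tested genes were non-overlapping in that direction. With edgeR's quasi-likelihood test and Benjamini-Hochberg adjustment over all genes, 0 of the 10 passed 0.05, where 0.0% of genes passed; at an unadjusted p under 0.05 there were 7 of the 10, all lower, where 4.92% of genes passed and 3.19% were lower. Without a filter on low counts edgeR called 6 of the 10 (Scd1, Fasn, Elovl5, Insig1, Sc5d and Dgat2), all lower, where 1.35% of 18462 genes were called and 1.33% were lower. A robust fit called 0 of the 10, where 0.0136% of genes were called, all lower. DESeq2 called 3 of the 10 (Scd1, Elovl5 and Sc5d), where it called 0.137% of genes as lower. Without WT replicate 1 edgeR called Scd1, Elovl5 and Sc5d, where 1.75% of 7718 genes were called and 1.74% were lower, and without Dnmt3a+/- replicate 2 it called Scd1 alone (0.013% of 7713 genes). The genes were chosen with this contrast in view, and 7 of them needed WT libraries to pass the filter. Nothing is therefore read from these counts against the shares over all genes. Without the libraries labelled Dnmt3a+/- replicates 3 and 4, the log2 fold changes were -1.82 (SE 0.49) for Scd1, -2.66 (SE 1.30) for Fasn, -2.64 (SE 0.77) for Sc5d and 0.08 (SE 0.14) for Elovl6, with 0 of the 10 past the edgeR threshold. Over the same libraries they were -2.91 (SE 0.86) for Elovl5, -1.63 (SE 0.56) for Insig1, -1.41 (SE 0.52) for Dgat2, -1.40 (SE 1.13) for Acaca, -1.16 (SE 0.87) for Me1 and -0.43 (SE 0.25) for Acly.

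The level of Alb, serum albumin, the leading transcript of hepatocytes, varied more than any of the 10 genes. Alb had 935, 4, 1474 and 6 counts (61.6, 0.247, 89.3 and 0.260 CPM) in Dnmt3a+/- replicates 1 to 4, against 110, 3890, 15123 and 11691 counts (6.995, 210.2, 947 and 761 CPM) in WT replicates 1 to 4. WT replicate 1 thus held less Alb than Dnmt3a+/- replicates 1 and 3. Of 22 hepatocyte markers 21 were found and all 17 tested had negative log2 fold changes (median -3.78); together they took 0.0119%, 0.000617%, 0.0163% and 0.00051% of counts in the Dnmt3a+/- libraries, against 0.00232%, 0.0437%, 0.182% and 0.148% in the WT libraries. Of the 21, 13 had 0 counts in Dnmt3a+/- replicate 2 and 12 in Dnmt3a+/- replicate 4, against 1 in WT replicate 1 and 0 in the other 5 libraries. The highest of the list in Dnmt3a+/- replicates 2 and 4 was Apoh, with 77 and 82 counts, and no other member of the list was above 12 counts there. In bulk RNA, fewer cells of a type and less RNA per cell cannot be told apart. The part of liver RNA in the levels of the 10 genes was not tested.

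Adipoq, the adipocyte hormone adiponectin, was near the detection limit. It had 0, 1, 1 and 0 counts in Dnmt3a+/- replicates 1 to 4, against 25, 39, 8 and 0 counts in WT replicates 1 to 4, and a count of 0 allows up to 3 expected counts. WT replicates 1 and 2 were the highest, and WT replicate 4 and Dnmt3a+/- replicates 1 and 4 had no Adipoq count. Of 15 adipocyte markers, of which Pck1 is also among the hepatocyte markers and Plin1 among the triglyceride genes, 5 were tested, all with negative log2 fold changes (median -0.46); all 15 took 0.00109% to 0.00324% of counts in Dnmt3a+/- libraries and 0.00221% to 0.00518% in WT libraries. Fabp4, which is also made outside fat, gave 76 to 340 of the 170 to 718 counts of that list in Dnmt3a+/- libraries and 135 to 311 of 336 to 894 in WT libraries. Lep, the leptin gene, had 0 counts in all 4 Dnmt3a+/- libraries, against 0, 4, 4 and 0 counts in WT replicates 1 to 4. Cfd, adipsin, had 0, 6, 0 and 5 counts in the Dnmt3a+/- libraries, against 39, 54, 4 and 1 in the WT libraries. Adipoq, Lep and Cfd overlapped between labels, as did Lpl and Cebpa of the same list. Plin1 did not overlap in CPM, though only just, with at most 0.124 in Dnmt3a+/- libraries and at least 0.130 in WT libraries. Its counts were 0, 2, 0 and 1 in Dnmt3a+/- replicates 1 to 4, against 7, 24, 6 and 2 in WT replicates 1 to 4. Lpl had 21, 76, 21 and 99 counts in the Dnmt3a+/- libraries, against 40, 148, 59 and 28 in the WT libraries. Cebpa had 31, 40, 60 and 84 counts, against 27, 91, 59 and 55 in the same order. The share of the list in Dnmt3a+/- replicate 4 (0.00324%) was above that in WT replicates 1, 3 and 4. The part of fat RNA in the levels of the 10 genes was not tested.

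Set against Alb within each library, the 10 genes formed no constant ratio. Scd1 gave 12.2, 10400, 6.85 and 2830 counts per 100 Alb counts in Dnmt3a+/- replicates 1 to 4, against 645, 28.6, 9.29 and 5.71 in WT replicates 1 to 4. Sc5d gave 0.749, 125, 0.678 and 50 per 100 Alb counts in the Dnmt3a+/- libraries, against 10.9, 0.771, 0.496 and 0.359 in the WT libraries. In the 5 libraries with at least 935 Alb counts the Sc5d ratio therefore stayed between 0.359 and 0.771, while the Fasn ratio in the same libraries ran from 0.197 (WT replicate 4) to 11.6 (WT replicate 2). WT replicate 1, with 6.995 CPM of Alb, had 45.1 CPM of Scd1 and 33.4 CPM of Fasn, while Dnmt3a+/- replicates 1 and 3, with 61.6 and 89.3 CPM of Alb, had 7.51 and 6.12 CPM of Scd1 and 0.198 and 0.242 CPM of Fasn. Adipoq counts of 0 or 1 are too low to order libraries, so the relation of Fasn to Adipoq cannot be read there. Dnmt3a+/- replicates 1 to 4, with 0, 1, 1 and 0 Adipoq counts, had 3, 79, 4 and 94 Fasn counts. WT replicate 4, with 0 Adipoq counts, had 23. Of the adipocyte markers, Cfd had 0, 6, 0 and 5 counts and Cidec 0, 4, 0 and 6 in Dnmt3a+/- replicates 1 to 4. Fabp4 (76, 146, 168 and 340 counts) and Cebpa (31, 40, 60 and 84) had another order there. These markers were chosen after their values were seen.

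**Figure D2:**
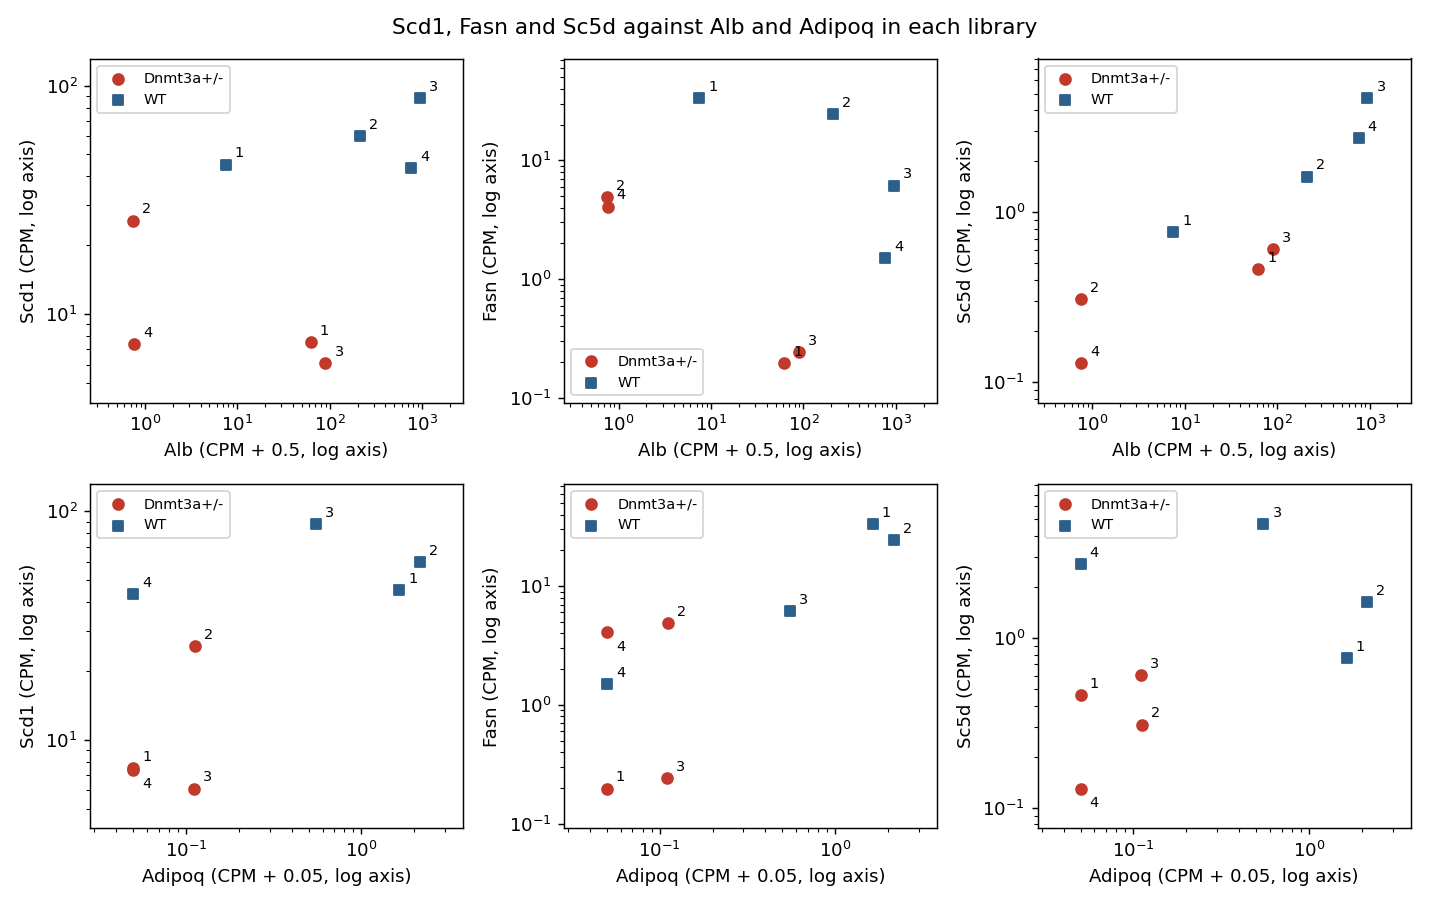
Scd1, Fasn and Sc5d in CPM (vertical log axes) against Alb (upper row, CPM + 0.5) and Adipoq (lower row, CPM + 0.05) on log axes, 1 point per library, red circles for Dnmt3a+/- and blue squares for WT, numbered by replicate. Sc5d is highest in WT replicates 3 and 4, which hold the most Alb (947 and 761 CPM), and Fasn is highest in WT replicates 1 and 2, which hold the most Adipoq (25 and 39 counts). Where Adipoq has 0 counts, which cannot order libraries, Fasn ranges from 0.198 CPM (Dnmt3a+/- replicate 1) to 4.07 CPM (Dnmt3a+/- replicate 4).

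Fits with a further term, added after the data were seen, describe how each difference moves with these transcripts. The 10 genes were chosen with the levels of Alb and Adipoq in view, so the shifts are descriptions and support nothing beyond that choice. With the log2 level of Alb as a covariate, the log2 fold change was -2.82 (SE 0.59) for Scd1, -5.59 (SE 0.77) for Fasn, -4.30 (SE 0.81) for Acaca, -3.22 (SE 0.53) for Me1 and -0.56 (SE 0.21) for Acly. In that fit Dgat2 was at -2.11 (SE 0.53), Insig1 at -1.86 (SE 0.56), Sc5d at -1.39 (SE 0.49), Elovl5 at -1.16 (SE 0.63) and Elovl6 at 0.11 (SE 0.16). Against the fit without a covariate, Scd1, Fasn, Acaca, Me1, Acly, Dgat2 and Insig1 lay farther from 0 and Sc5d, Elovl5 and Elovl6 nearer to it. The largest shifts were in Fasn, Acaca and Me1. With the log2 level of Adipoq in its place it was -2.26 (SE 0.58) for Scd1, 0.38 (SE 1.10) for Fasn, 0.86 (SE 1.20) for Acaca, 0.26 (SE 0.77) for Me1 and 0.07 (SE 0.18) for Acly, the last 4 with the opposite sign. Dgat2 was at -0.96 (SE 0.48), Insig1 at -1.37 (SE 0.53), Sc5d at -3.42 (SE 0.68), Elovl5 at -3.05 (SE 0.66) and Elovl6 at 0.07 (SE 0.16) with Adipoq. Both fits called 0 genes over the whole table, with 0 of the 10 among them, and 8 libraries leave such fits few degrees of freedom. Both covariates differ between the labels, so label and covariate are only partly separable. Adipoq had only 0 or 1 counts in each Dnmt3a+/- library, so in that fit the label can hardly be told from the covariate.

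The profiles of the 10 genes fell into kinds when each was centred on its own mean of log2(CPM + 0.5) and compared by root mean square difference over the 8 libraries, a distance on the log2 scale that is 0 for parallel profiles. Acaca and Me1 were 0.471 apart, Acaca and Fasn 0.605 and Fasn and Me1 0.929. Elovl5 and Sc5d were 0.381 apart, and Insig1 and Dgat2 0.315. Fasn and Elovl5 were 2.06 apart, and Fasn and Sc5d 2.01. Among all tested genes, the nearest to Me1 were Pcx, pyruvate carboxylase (0.415), Acaca, and Thrsp (0.488), a lipogenic gene of fat and liver. Pcx had 0, 0.433, 0 and 0.737 CPM in the Dnmt3a+/- libraries, against 3.94, 3.03, 1.13 and 0.325 CPM in the WT libraries, the same lead of WT replicates 1 and 2. The nearest to Acaca were Me1, Pcx (0.565) and Fasn, and the nearest to Fasn were Acaca, Pcx (0.897) and Me1.

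The nearest genes to Elovl5 were Serpinf1 (0.124), Phyh (0.266), an enzyme of peroxisomal fatty acid breakdown, and Crp (0.364), a plasma protein of the liver. The nearest to Sc5d were Adh1, alcohol dehydrogenase (0.246), Apoh, an apolipoprotein of the liver (0.356), and Ass1, an enzyme of the urea cycle (0.370). Apoh had 4.48, 4.76, 5.57 and 3.55 CPM in the Dnmt3a+/- libraries, against 3.75, 7.29, 27.8 and 21.7 CPM in the WT libraries, the same lead of WT replicates 3 and 4 as in Sc5d, though Dnmt3a+/- replicates 2 and 4 held 77 and 82 Apoh counts beside 4 and 6 counts of Alb. Scd1 was nearest to Car3 (0.602), a carbonic anhydrase abundant in fat, then Insig1 (0.825). Car3 had 1.12, 4.51, 1.39 and 4.42 CPM in the Dnmt3a+/- libraries, against 11.9, 21.1, 15.7 and 6.57 CPM in the WT libraries. Dgat2 was nearest to Gpd1 (0.244), which makes glycerol phosphate, Nsun2 (0.274) and Plac8 (0.275), and Insig1 to Qdpr (0.255), Nfkb1 (0.293) and Sh3bp5 (0.303). Acly and Elovl6 varied too little over the libraries to be compared this way.

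**Figure D3:**
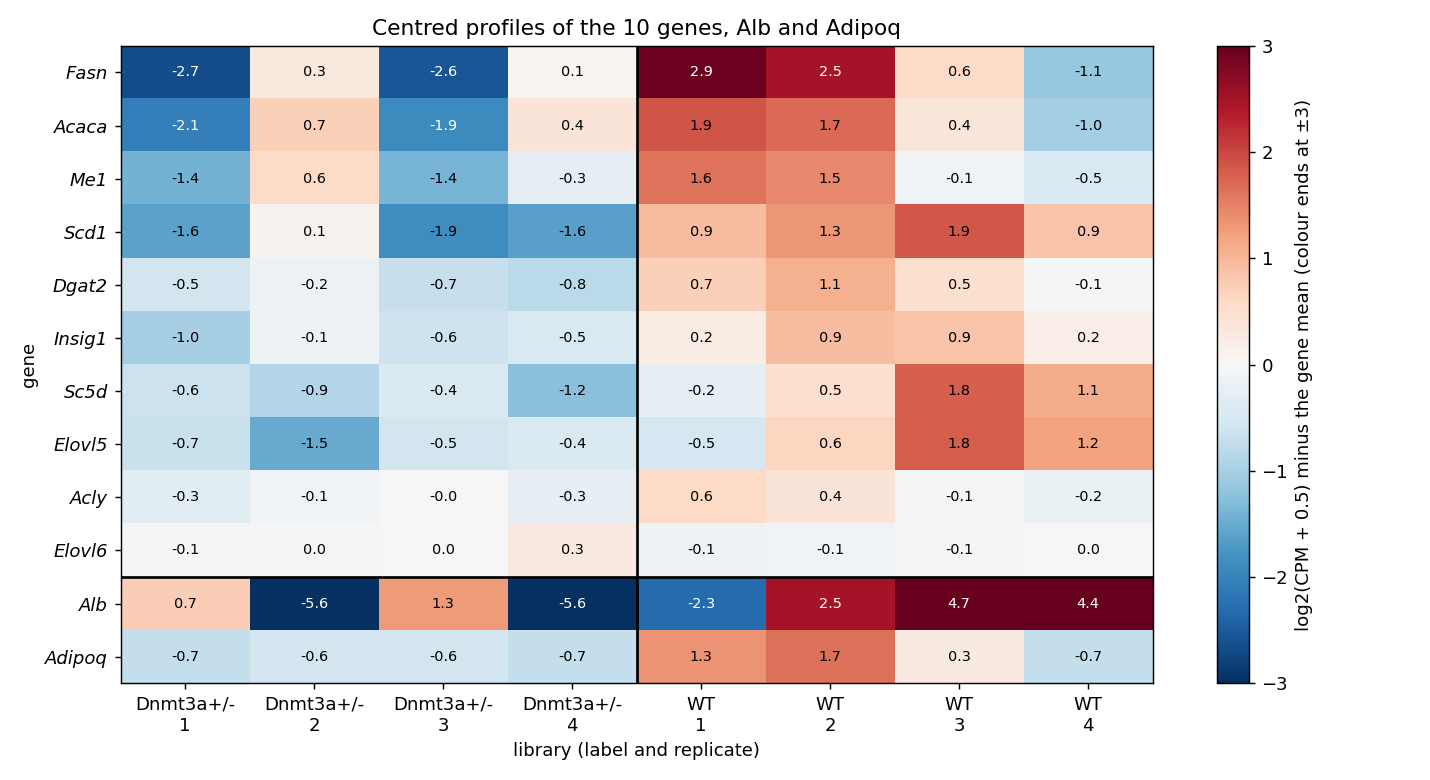
Heat map of log2(CPM + 0.5) minus each gene's mean (rows: the 10 genes, then Alb and Adipoq; columns: 4 Dnmt3a+/- libraries, then 4 WT libraries). Fasn, Acaca and Me1 peak in WT replicates 1 and 2, and Sc5d and Elovl5 in WT replicates 3 and 4. Scd1 and Insig1 are above their means in all 4 WT libraries, and Scd1 also in Dnmt3a+/- replicate 2 (0.113). Elovl6 stays within 0.27 of its mean.

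Other genes of the same pathways were tested in the same fit, and 0 of 74 tested passed (smallest edgeR adjusted p 0.647), where 0.0% of all genes passed. At an unadjusted p under 0.05 there were 7 of the 74, beside 4.92% of all tested genes, and DESeq2 called 0, beside 0.137% of all genes. Of 29 other genes of fatty acid synthesis, elongation, desaturation and activation, 16 were tested, 4 higher and 12 lower (median log2 fold change -0.20). An unadjusted p under 0.05 was reached by 4 of them, each lower in Dnmt3a+/- libraries, beside 3.19% of all tested genes in that direction. Hsd17b12, the ketoacyl reductase of chain elongation, averaged 0.759 ± 0.117 CPM in Dnmt3a+/- libraries and 1.76 ± 0.64 in WT libraries (SD, n = 4 each; log2 fold change -1.21, SE 0.32), and the groups did not overlap. Fads1, a desaturase of polyunsaturated chains, averaged 0.690 ± 0.311 CPM in Dnmt3a+/- libraries and 1.83 ± 0.79 in WT libraries (log2 fold change -1.36, SE 0.42). Hsd17b12 and Fads1 each had an edgeR adjusted p of 0.647.

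The more abundant genes of chain elongation and desaturation overlapped between labels. Hacd4, a dehydratase of chain elongation, had the highest level of its list (median 533 TPM over the 8 libraries) and averaged 2194 ± 125 CPM in Dnmt3a+/- libraries and 2224 ± 173 in WT libraries, a log2 fold change of -0.02 (SE 0.10, edgeR adjusted p = 0.998). The elongases Elovl1 (52.7 to 76.4 CPM in Dnmt3a+/- libraries, 52.3 to 78.9 in WT libraries) and Elovl7 (54.4 to 71.9 and 57.9 to 66.3 CPM, in the same order of labels) and the desaturase Fads2 (77.0 to 104 and 78.2 to 110 CPM) overlapped between labels, as Elovl6 did. These 3 were chosen after their values were seen.

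Of 21 other genes of sterol synthesis 12 were tested, 3 higher and 9 lower (median -0.21), with 1 at an unadjusted p under 0.05. That was Hmgcs1, which makes HMG-CoA, at 0.726 ± 0.204 CPM in Dnmt3a+/- libraries and 1.54 ± 0.85 in WT libraries (SD, n = 4 each; log2 fold change -1.08, SE 0.43, edgeR adjusted p = 0.936). Ebp, a sterol isomerase, had a log2 fold change of -0.58 (SE 0.28, edgeR adjusted p = 0.987).

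Regulators of these pathways ranged from scarce to abundant. Of 16 such genes 11 were tested, 3 higher and 8 lower (median -0.13). Srebf1, which encodes the SREBP that drives fatty acid synthesis, had 0 to 6 counts in Dnmt3a+/- libraries and 4 to 8 in WT libraries, below the filter. Srebf2, its counterpart for sterols, averaged 0.966 ± 0.248 CPM in Dnmt3a+/- libraries and 1.07 ± 0.21 in WT libraries (SD, n = 4 each; log2 fold change -0.14, SE 0.31). Insig2, the relative of Insig1, was abundant (median 58.7 TPM) and averaged 33.8 ± 2.37 CPM in Dnmt3a+/- libraries and 32.8 ± 5.03 in WT libraries, a log2 fold change of 0.04 (SE 0.13), beside 0.555 ± 0.251 and 1.79 ± 0.62 CPM of Insig1 in the same order of labels. Mlx, a partner of the glucose-sensing factor ChREBP, was at 0.31 (SE 0.30).

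Triglyceride, NADPH and oxidation genes had 1 unadjusted p under 0.05 among them. Of 28 other genes of triglyceride synthesis, storage and breakdown 10 were tested, 5 higher and 5 lower (median 0.0041). Lpin2, a phosphatidate phosphatase, had the smallest p and the highest level of the list (median 34.8 TPM), at 149 ± 7.35 CPM in Dnmt3a+/- libraries and 128 ± 14.8 in WT libraries, without overlap (log2 fold change 0.22, SE 0.10, edgeR adjusted p = 0.987), and Agpat2 was at -0.48 (SE 0.29). Of 7 other genes of NADPH supply 5 were tested, 1 higher and 4 lower (median -0.04): Taldo1, transaldolase, was at 0.09 (SE 0.15), Tkt, transketolase, at -0.17 (SE 0.21) and G6pdx, the entry enzyme of the pentose phosphate pathway, at -0.06 (SE 0.09). Of 23 genes of fatty acid oxidation 20 were tested, 5 higher and 15 lower (median -0.19), with Decr1, the gene with that p, at -1.18 (SE 0.51, edgeR adjusted p = 0.986), Hadh at -0.47 (SE 0.27) and Eci2, the highest of the list (median 85.0 TPM), at 0.01 (SE 0.13).

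**Figure D4:**
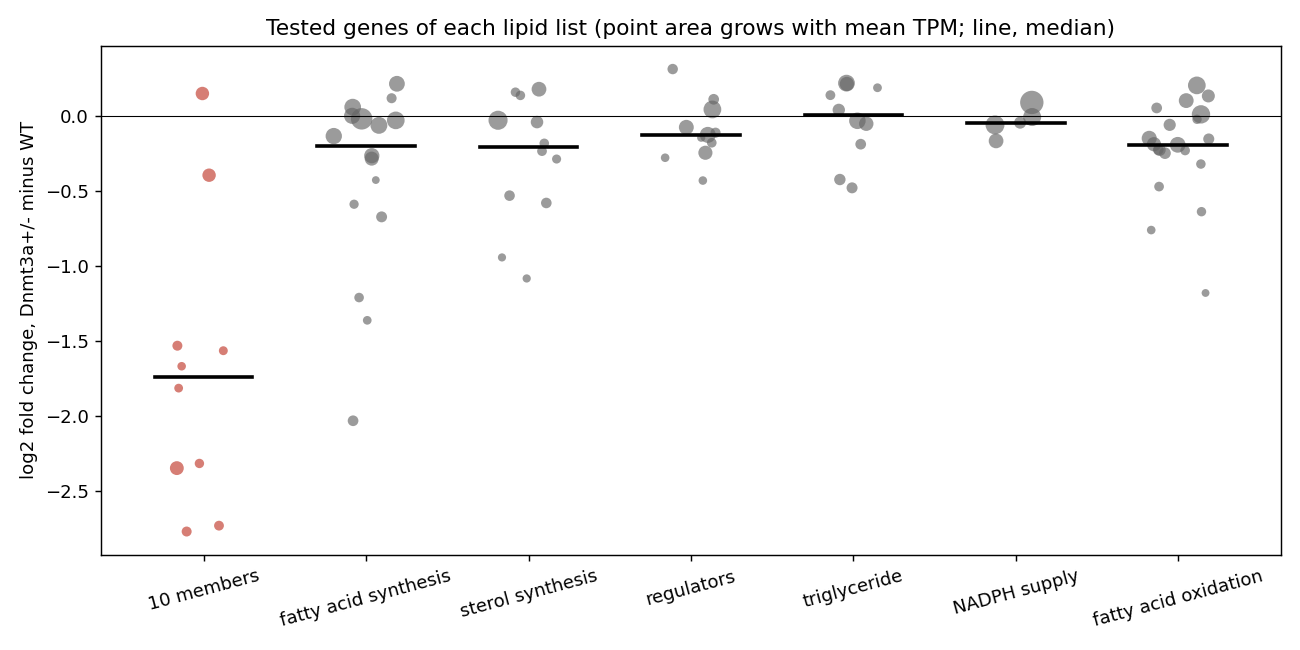
Log2 fold change, Dnmt3a+/- minus WT (vertical axis), of each tested gene of the 10 members (red) and of 6 other lipid lists (grey), with point area growing with mean TPM and a line at each median. Medians of the other lists lie between -0.21 and 0.0041, beside -1.74 for the 10 genes, which were chosen with this contrast in view.

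Other cell types that the blood draw could bring were followed by their own markers. Leukocyte markers (12, with Cd3e and Cd3g at 0 in all 8 libraries) took 0.000216% to 0.00109% of counts in Dnmt3a+/- libraries and 0.000375% to 0.000689% in WT libraries, with Ptprc at 0.897 ± 0.644 CPM and 0.610 ± 0.518 CPM in the same order of labels. Endothelial markers (7) took 0.108% to 0.117% in Dnmt3a+/- libraries and 0.0937% to 0.112% in WT libraries, nearly all of it from Pecam1, which platelets also carry (16684 to 24924 counts in Dnmt3a+/- libraries and 15909 to 18990 in WT libraries). Heart muscle markers (7, Nppa at 0 throughout) summed to 17 to 86 counts in Dnmt3a+/- libraries and 13 to 27 in WT libraries. Skin and sebaceous gland markers (8, with Krt1, Krt79 and Lor at 0 throughout) summed to 1 to 3 counts in Dnmt3a+/- libraries and 0 to 5 in WT libraries.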

How the data were processed

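Platelet RNA of 8 mice was sequenced from stranded libraries of polyadenylated RNA, per the labels' protocols. The authors deposited estimated counts per gene, written as whole numbers and used here as such, and TPM values (relative transcript abundance, corrected for length) with a total of 1000000 per library. The submitters' processing notes name the tools DESeq2, RSEM, STAR and cutadapt and the build mm10; tool versions, annotation and strand setting are not given in the sources used here. Genes that overlap the 10 had 0 or 1 counts. Missing symbols (86) and coordinates came from GENCODE M21 for GRCm38, which holds 55141 of 55487 identifiers, and promoters from RefSeq.

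The comparison was fitted with edgeR 4.0.16 (R 4.3.3) on all 8 libraries, with TMM factors, filterByExpr (minimum count 10, total 15), the quasi-likelihood test and Benjamini-Hochberg adjustment over 7362 genes at 0.05. The SE is the log2 fold change divided by the root of its F statistic. The labels call the samples biological replicates. The 10 genes and the gene lists were chosen with earlier results of these data known. The text names the 10 genes, Alb, Adipoq, the lead marker or markers, the 2 smallest p-values and the highest TPM of each lipid list, Srebf1, Srebf2, and the 3 nearest profiles of each member with an SD over 0.5; a few genes under this rule are not reported here. Alternatives were RLE and upper-quartile factors, other filters, DESeq2 1.42.0, limma 3.58.1 on log2 TPM, a robust fit, the replicate block and each library left out. The fit was tested on simulated data.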

Additional observations from a re-analysis of the deposited data

Results flagged for a closer look

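The level of Scd1 in Dnmt3a+/- replicate 2 was 25.7 CPM, far from the 6.12 to 7.51 CPM of the other Dnmt3a+/- libraries, and its gap to them was above Dixon's 95% critical value for 4 samples. This was 1 of 20 groups examined (10 genes under 2 labels), and chance alone flags about 1 in 20 groups. Without that library the log2 fold change of Scd1 was -3.09 (SE 0.27), and with it -2.35 (SE 0.44). In the same library Fasn, Acaca and Me1 were at 4.88, 3.34 and 3.34 CPM, the highest of the Dnmt3a+/- libraries, and Alb was at 0.247 CPM.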

How the results depend on the processing

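Over 20 alternatives the 10 log2 fold changes gave 200 values, of which 183 kept their direction and their side of the edgeR threshold, 13 kept their direction and passed it, and 4 changed sign. The sign changes all came with the Adipoq covariate: Fasn 0.38, Acaca 0.86, Acly 0.0706 and Me1 0.26. The count of genes past the threshold was 0 in the fit reported, 250 without a filter on low counts (246 lower; 6 of the 10 genes and 4 other lipid genes), 14 with DESeq2 (3 of the 10), 1 with a robust fit and 1 without Dnmt3a+/- replicates 3 and 4. Leaving out each library in turn gave 0 to 135 genes (135 without WT replicate 1), 0 to 3 of the 10 genes and 0 to 2 other lipid genes. The cause was not tested. The replicate numbers are not said to pair mice, and same-numbered libraries did not deviate together (correlations of -0.098 to 0.114 over genes, 2 of the 4 above 0.1). With the replicate block 0 genes passed and Scd1 was at -2.53 (SE 0.36). Low counts limit Sc5d, Dgat2, Insig1 and Elovl5, whose Dnmt3a+/- libraries held 3 to 22 counts each. They also limit Fasn (3 and 4 counts), Acaca (1 and 2) and Me1 (7 and 8) in Dnmt3a+/- replicates 1 and 3.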

Other observations

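Among other lipid genes, 2 elongases of very long chains known from liver and skin or brown fat, Elovl2 and Elovl3, were highest in the libraries with the most Alb. Elovl2 had 1, 1, 10 and 2 counts in Dnmt3a+/- replicates 1 to 4, against 1, 12, 87 and 41 counts in WT replicates 1 to 4. Elovl3 had 8, 0, 8 and 0 counts in the Dnmt3a+/- libraries, against 3, 16, 70 and 62 in the WT libraries. Thrsp, in contrast, had 11, 21, 3 and 17 counts in the Dnmt3a+/- libraries, against 68, 90, 37 and 8 in the WT libraries, with WT replicates 1 and 2 in the lead as for Fasn. These 3 genes were chosen after their values were seen. Without a filter on low counts edgeR called Elovl2 (log2 fold change -3.38, adjusted p = 0.00262), Elovl3 (-3.25, adjusted p = 0.00319), Thrsp (-2.02, adjusted p = 0.0063) and Plin1 (-3.53, adjusted p = 0.0339), and without WT replicate 1 it called Elovl2 and Cyp51 (-2.48, adjusted p = 0.0302).

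The deposited counts and TPM ranked the libraries differently for several of the 10 genes. For Acaca, estimated counts per TPM were 81.8 and 164 in Dnmt3a+/- replicates 2 and 4, against 47.4, 136, 148 and 35.7 in WT replicates 1 to 4, while those of Elovl6 lay between 79.3 and 115 in all 8 libraries. WT replicates 3 and 4 thus had 40 and 10 Acaca counts but 0.27 and 0.28 TPM. In the same libraries Acly had 20.2 and 18.2 CPM but 4.64 and 7.12 TPM, and Me1 had 1.88 and 1.37 CPM but 0.59 and 0.97 TPM. Counts per TPM of Me1 ran from 21.6 to 62.3 over 7 libraries and were not computed for Dnmt3a+/- replicate 1.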
